A study of Mus musculus with 7 samples.

Results

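The 45 genes described here encode the machinery that brings a new secretory or membrane protein into the endoplasmic reticulum (ER) and carries it to the Golgi. They were listed by name, as subunits of 8 complexes, and were chosen with earlier results of these data known. The list held 7 genes of the signal recognition particle and its receptor, 6 of the Sec61 translocon and 4 of the translocon-associated protein complex. It also held 5 of signal peptidase and 6 of oligosaccharyl transferase. The rest were 10 of the COPII coat, 5 of the COPI coat and 2 that encode a cargo receptor. All 45 were among the 46959 features of the deposited table, and all 45 had enough reads to be among the 18062 genes tested. The 2 groups were B cells labelled cKO MED1, a conditional knockout of the Mediator subunit gene Med1 (n = 4 libraries), and B cells labelled WT (n = 3 libraries). Both were purified from mouse spleen and cultured for 4 days with 20 ng/mL of the cytokine IL-4 and 1 µg/mL of bacterial lipopolysaccharide (LPS), and total RNA was sequenced after ribosomal RNA depletion. The Cre driver of the deletion, the strain and the age of the mice, and whether each library came from a separate mouse, are not given in these sources. The p-values therefore measure the spread between libraries, which may be technical in part.

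The signal recognition particle binds a signal sequence as it leaves the ribosome and docks on its receptor at the ER membrane, where the Sec61 channel takes the chain across. Signal peptidase cuts the signal sequence off, and oligosaccharyl transferase adds the N-linked glycan that immunoglobulin heavy chains carry. COPII coats form the vesicles that leave the ER, and COPI coats form those that bring escaped ER proteins back. B cells stimulated with LPS and IL-4 switch isotype, and some become antibody-secreting plasmablasts, cells in which this machinery is known to expand.

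Med1 itself checked the labels. It had 2585, 2172, 2249.5 and 2436 normalised reads (reads scaled with TMM factors to a common effective library of 48019800 reads) in the 4 cKO MED1 libraries, against 4755.5, 4173 and 4210.1 in the 3 WT libraries. Med1 transcript fell to 53.9% of the WT mean in cKO MED1 (log2 fold change -0.89 ± 0.09 SE; limma, Benjamini-Hochberg adjusted p = 0.000174 over all genes tested), and was not absent. The libraries held 31937372 to 49603193 recovered reads in cKO MED1 and 54736580 to 61149274 in WT, so every WT library was deeper. The mitochondrial ribosomal gene mt-Rnr2 took 21.0 to 35.5% of the reads in cKO MED1 and 17.7 to 22.5% in WT. The 18S ribosomal gene Rn18s-rs5 took 7.70% in cKO MED1 1, and between 0.069% and 0.663% in every other library. By Xist and Y-linked transcripts, cKO MED1 1, 2 and 4 were female, and cKO MED1 3 and all 3 WT libraries were male, though WT 2 had 1241 normalised reads of Xist, against 59.2 in WT 1 and 11.2 in WT 3. Sex and genotype are nearly confounded: they can be told apart only through cKO MED1 3. Of 8 B cell markers 5 were lower in cKO MED1 (Cd79a, Cd79b, Ms4a1, Cd22 and Pax5), with the summed list at 300536 to 342963 normalised reads in cKO MED1 and 358339 to 370440 in WT. Of 12 plasma cell markers 3 were lower (Sdc1, Jchain and Fkbp11) and 3 higher (Prdm1, Irf4 and Derl3) in cKO MED1. That list summed to 119754 to 155548 normalised reads in cKO MED1 and 133344 to 184569 in WT. The lists for T cells, NK cells, macrophages, neutrophils, megakaryocytes and erythroid cells each summed to at most 789 normalised reads in any library. Among these, the lists for T cells (117 to 234 in cKO MED1 and 48.9 to 73.5 in WT), neutrophils (19.0 to 69.5 in cKO MED1 and 2.75 to 10.6 in WT) and megakaryocytes (105 to 178 in cKO MED1 and 31.0 to 49.8 in WT) were higher in cKO MED1 without overlap, and Lat, Mpo, Itga2b and Hba-a1 were called higher (limma). Itga2b, which made up most of the megakaryocyte sum, averaged 126 in cKO MED1 and 40.5 in WT. Of the 12041 tested genes outside the third with the highest mean, limma called 17.3% higher. Olfactory and vomeronasal receptor genes, taken as background, had 0.239 to 1.04 normalised reads per kb in cKO MED1 and 0.117 to 0.244 in WT. The dendritic cell list summed to 3989 to 5182 in cKO MED1 and 2605 to 3523 in WT, without overlap. Of its 4 tested genes 2 were called higher, Flt3 and Batf3 (limma). Of the 5 stroma and endothelium markers Pecam1 was lower, at 980 ± 69.3 in cKO MED1 and 1429 ± 114 in WT (SD, n = 4 and 3); the other 4 were not called and had log2 fold changes above 0. No listed marker was at 0 in every library, and the part of these differences in the results on the secretory genes was not tested. In bulk RNA, fewer cells of a type and less RNA per cell cannot be told apart.

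Of the 45 genes, 6 were lower in cKO MED1 and 1 was higher at an adjusted p under 0.05 (limma), and 38 did not pass the test; 17 had an unadjusted p under 0.05. The edgeR quasi-likelihood test called 5 lower and 1 higher, and DESeq2 13 lower and 1 higher. Of all 18062 genes tested, edgeR called 2665 lower and 2675 higher, and DESeq2 3027 lower and 3110 higher. The 6 that fell were Rpn1, Rpn2 and Stt3b of oligosaccharyl transferase, Srprb of the signal recognition particle receptor, Sec61a1 of the translocon and Sec11a of signal peptidase, and they fell to between 69.9% and 81.8% of the WT mean. Srp14, which encodes a subunit of the signal recognition particle, rose to 133% of the WT mean. The share that fell, 13.3%, was near the 14.6% of all genes tested that fell, and below the 27.8% among the 6021 tested genes with the highest mean, where 44 of the 45 genes belonged. The share that rose, 2.22%, stood beside 13.4% of all genes tested and 5.6% of those 6021 genes. The groups did not overlap, with cKO MED1 lower, for 15 genes (33.3%), against 19.8% of all genes tested and 36.6% of the 6021. No gene had cKO MED1 wholly above WT, where 19.3% of all genes tested and 7.36% of the 6021 did. The median log2 fold change of the 45 genes was -0.15, beside 0.04 over all genes tested and -0.15 over the 6021 genes of highest mean.

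**Figure D1:**
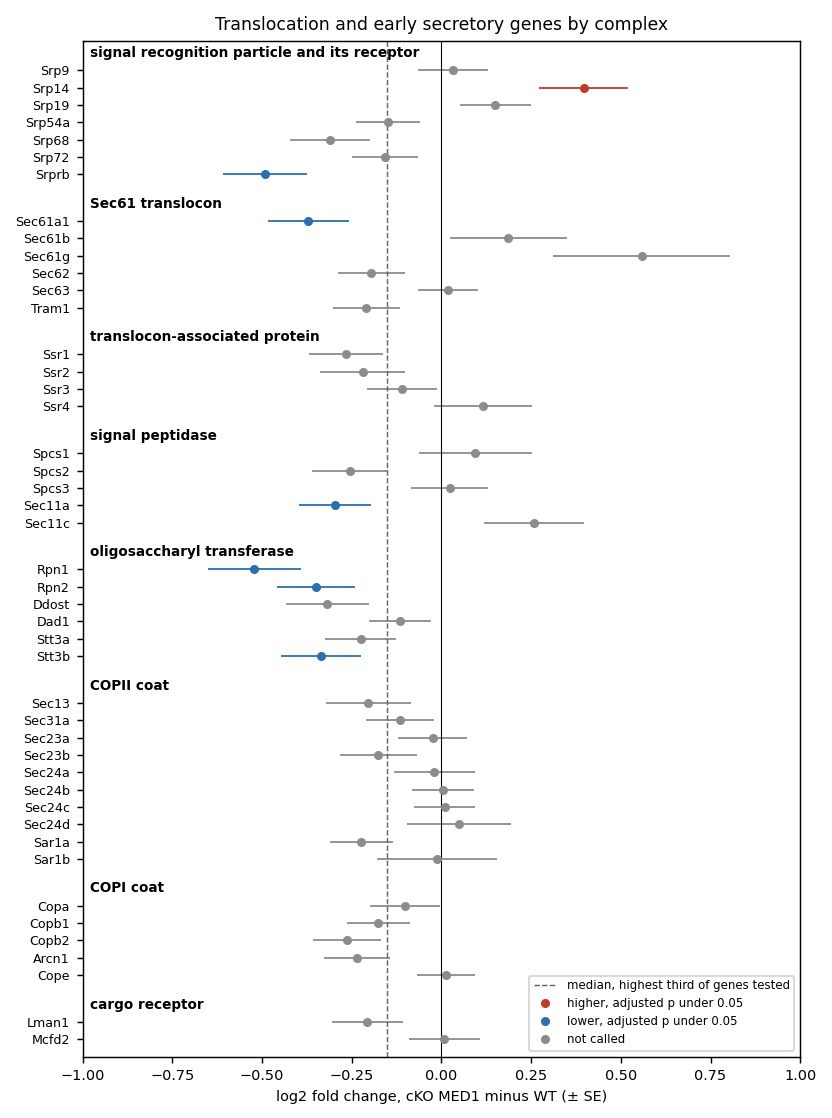
Log2 fold change (cKO MED1 minus WT, horizontal axis) of each of the 45 genes with its standard error, in blocks by complex; blue marks lower and red higher at an adjusted p under 0.05, and grey marks genes that did not pass. The dashed line at -0.15 is the median of the 6021 tested genes with the highest mean. All 6 oligosaccharyl transferase genes lie left of 0, and Srp14 is the one red point.

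These calls depended on single libraries. All female libraries were cKO MED1, so with sex as a covariate limma compares cKO MED1 3 alone with the WT libraries. A fit that rests on 1 library cannot decide these calls. It gave the 45 genes a median log2 fold change of -0.069, the value of cKO MED1 3, beside 0.006 over all genes tested. Without WT 1 limma called none of the 45, with 10 at an unadjusted p under 0.05 and the median at -0.16. Of all 19597 genes then tested it called 1029 lower and 527 higher. Without cKO MED1 4 only 2 of the 45 were called lower and none higher, with the median at -0.079. Over all 17117 genes then tested the counts were 1523 lower and 1289 higher. Without cKO MED1 2, and likewise without WT 3, 3 were lower and none higher, and without cKO MED1 1, 7 were lower and 3 higher. Over all genes tested, in the same order, these fits called 2181, 2573 and 3114 lower and 2194, 1613 and 3012 higher. WT 1 was the highest of the 7 libraries for 20 of the 45 genes, and cKO MED1 4 was the lowest for 23. The single male cKO MED1 library, cKO MED1 3, was the lowest of the 7 for 2 genes and the highest for 12.

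Oligosaccharyl transferase transfers the glycan to asparagine, and it was the complex with the most calls. Of its 6 listed genes 3 fell, a small count to set beside 14.6% of all genes tested and 27.8% of the 6021 genes of highest mean. The median log2 fold change was -0.33, and all 6 values were below 0 under each of the 6 scalings tried. Of the 6021 genes, 4280 were below 0 as reported. A scaling moves all genes of a library together: by total reads, 42 of the 45 genes were below 0. Rpn1 (chr6:88084482-88105304, plus strand, GRCm38) encodes ribophorin I, the subunit that delivers some membrane proteins to the catalytic site. It had 10939, 9644, 12384 and 8825 normalised reads in the cKO MED1 libraries, against 16211, 13062 and 15556 in the WT libraries. Every cKO MED1 library was below every WT library, and the closest pair was cKO MED1 3 and WT 2. Rpn1 averaged 10448 ± 1557 in cKO MED1 and 14943 ± 1662 in WT (SD, n = 4 and 3), a log2 fold change of -0.52 ± 0.13 SE with a limma adjusted p of 0.0161. It was called in 20 of 22 alternative settings, and not without WT 1 (-0.51, limma adjusted p = 0.0644). The other exception was sex as a covariate, a fit that rests on cKO MED1 3 (-0.26).

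Rpn2 (chr2:157279017-157326319, plus strand), which encodes the partner ribophorin II, had 11129, 10307, 11586 and 9368 normalised reads in cKO MED1, against 14697, 12057 and 13736 in WT. The groups did not overlap, though WT 2 lay only just above cKO MED1 3. The log2 fold change of Rpn2 was -0.35 ± 0.11 SE at an adjusted p of 0.0361 in limma. Stt3b (chr9:115242581-115310421, minus strand), the catalytic subunit that also glycosylates sites after the chain has been released, had 8866, 9614, 9334 and 7306 normalised reads in cKO MED1, against 11879, 10828 and 10387 in WT. Its log2 fold change was -0.33 ± 0.11 SE at an adjusted p of 0.0441 in limma. For Stt3b, too, all 4 cKO MED1 libraries were below all 3 WT libraries, with cKO MED1 4 lowest. Rpn2 held its call in 14 and Stt3b in 13 of 22 alternatives, and each in only 3 of the 7 fits that left out 1 library.

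The other 3 listed subunits missed the threshold in limma, and DESeq2 called 1 of them, Ddost, lower. Ddost, the subunit that anchors the complex, had 6797, 7265, 8524 and 6294 normalised reads in cKO MED1 and 9375, 8085 and 9424.5 in WT (log2 fold change -0.32 ± 0.11 SE; adjusted p = 0.0572 by limma), and cKO MED1 3 lay above WT 2. Stt3a, the catalytic subunit that works at the translocon during synthesis, had 8793, 8458, 9702 and 8095 in cKO MED1 and 10867, 9328 and 10522 in WT, again with cKO MED1 3 above WT 2 (log2 fold change -0.22; limma adjusted p = 0.103). Dad1, a small structural subunit, gave the smallest difference of the 6 (log2 fold change -0.11; limma adjusted p = 0.326). The 6 listed genes summed to 48376, 47188, 53335 and 41546 normalised reads in cKO MED1, against 65079.7, 55174 and 61622 in WT. Further subunits of the complex, given below, were not in this sum. The sums did not overlap, and averaged 47611 ± 4841 in cKO MED1 and 60625 ± 5028 in WT (SD, n = 4 and 3). The group's per-library medians, as log2 levels minus the WT mean, were -0.29, -0.29, -0.16 and -0.51 in cKO MED1, against 0.10, -0.14 and 0.04 in WT, with cKO MED1 3 close below WT 2.

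The promoter of Rpn1 is shown because Rpn1 had the most negative log2 fold change of the 45 genes. It is chr6:88084223-88084522 on the plus strand of GRCm38.p6, 250 bases before to 50 after a RefSeq start. Capitals mark CCACG and CCAAT on either strand, the core letters at either end of the ER stress response element, through which the unfolded protein response is known to act on ER genes; the element itself needs them 9 bases apart in a fixed order. The first bases of the matches lay at -77 and +12 for CCACG and at -6 for CCAAT, counted from the start.
Rpn1: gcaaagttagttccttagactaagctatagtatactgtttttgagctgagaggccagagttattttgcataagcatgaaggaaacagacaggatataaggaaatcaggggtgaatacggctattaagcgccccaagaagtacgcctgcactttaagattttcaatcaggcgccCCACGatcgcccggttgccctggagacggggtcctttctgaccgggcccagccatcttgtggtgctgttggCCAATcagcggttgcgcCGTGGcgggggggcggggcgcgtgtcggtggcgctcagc

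The signal recognition particle and its receptor showed 1 gene lower, 1 higher and 5 that did not pass in limma; DESeq2 called 2 lower and 1 higher. Srprb (chr9:103188032-103202137, minus strand) encodes the membrane-bound beta subunit of the receptor. It had 890.3, 855, 1056 and 813 normalised reads in cKO MED1, against 1467, 1157 and 1189.6 in WT. No cKO MED1 library reached a WT library, and the log2 fold change of Srprb was -0.49 ± 0.12 SE at an adjusted p of 0.0140 in limma. Srprb averaged 903 ± 107 in cKO MED1 and 1271 ± 170 in WT (SD, n = 4 and 3). Like Rpn1 it was called in 20 of 22 alternatives, and not with sex as a covariate (-0.26, limma adjusted p = 0.32) or without WT 1 (-0.43, limma adjusted p = 0.0563). Of its annotated exon sequence 20.7% lies within another gene model, Gm20425, on the same strand, so its count may be split with that model. Srpr, the alpha subunit that Srprb anchors, was not among the 45 genes but was tested beside them. It had 4440.5, 4079, 4538 and 4077.5 normalised reads in cKO MED1 and 5367, 4824 and 5319 in WT (log2 fold change -0.27 ± 0.09 SE; adjusted p = 0.0379 by limma), so both receptor subunits were lower in cKO MED1. The call of Srpr held in 13 of 22 alternatives and in 3 of the 7 fits that left out 1 library. With sex as a covariate, a fit that rests on cKO MED1 3, its log2 fold change was -0.19.

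Srp14 and Srp9 encode the pair of proteins that slow translation while the particle docks. Srp14 (chr2:118475850-118479711, minus strand) had 1988, 2771, 2911 and 2716 normalised reads in cKO MED1, against 1942, 2037 and 1879.5 in WT. The libraries cKO MED1 2, 3 and 4 were above all WT libraries, and cKO MED1 1 lay within the WT range. The log2 fold change of Srp14 was 0.40 ± 0.12 SE at an adjusted p of 0.0360 in limma; it was called in 10 of 22 alternatives and in 1 of the 7 fits that left out 1 library, the fit without cKO MED1 1. Its partner Srp9 had 2664, 3101, 3440.0 and 2860.5 in cKO MED1 and 2981, 2902 and 2927 in WT, with no call (log2 fold change 0.03; limma adjusted p = 0.819). Srp14 thus passed the threshold and Srp9 did not, and the difference between the partners was not tested.

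The remaining subunits of the particle did not pass in limma, and DESeq2 called 1 of them, Srp68, lower. Srp68, which binds the particle's RNA with Srp72, had 1394, 1230.1, 1288 and 1043 normalised reads in cKO MED1 and 1687.5, 1400.3 and 1509 in WT (log2 fold change -0.31; limma adjusted p = 0.0561), and the groups narrowly did not overlap, cKO MED1 1 being close below WT 2. Srp72 also did not overlap, with 8381, 7998, 7735 and 6903 in cKO MED1 and 8654, 8486 and 8720.3 in WT (log2 fold change -0.16; limma adjusted p = 0.210). Srp19, which helps assemble the particle, had a log2 fold change of 0.15 (limma adjusted p = 0.256). Srp54a, the subunit that binds the signal sequence, gave -0.15 (limma adjusted p = 0.216), but 66.6% of its 100-base windows also occur in Srp54b or Srp54c, so its value is uncertain.

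In the Sec61 channel limma called 1 of 6 genes lower, the one for the pore, and not the small subunits; DESeq2 called 2 lower, Sec61a1 and Tram1. Sec61a1 (chr6:88503579-88518905, minus strand), which forms the pore, had 10599, 9488, 11438 and 8883 normalised reads in cKO MED1, against 14148, 11701.5 and 13275 in WT. It was lower in cKO MED1 without overlap (log2 fold change -0.37 ± 0.11 SE; adjusted p = 0.0336 by limma), and averaged 77.5% of WT. The call of Sec61a1 held in 15 of 22 alternatives and in 3 of the 7 fits that left out 1 library. With sex as a covariate, a fit that rests on cKO MED1 3, its log2 fold change was -0.18. Sec61g, the gamma subunit, had 3019, 5856, 8024.5 and 6054 in cKO MED1, against 3777, 3797 and 3467 in WT. For Sec61g, cKO MED1 1 was the lowest of all 7 libraries and the other 3 cKO MED1 libraries were the highest 3. The log2 fold change of Sec61g, 0.56 ± 0.25 SE, was the largest positive value of the 45 genes and did not pass (limma adjusted p = 0.103); without cKO MED1 1 it was 0.82 (limma adjusted p = 0.00317). Of its 100-base windows 12.7% occur in other annotated genes. Sec61b, the beta subunit, had the same order within cKO MED1, with 3702, 5164, 6894.5 and 5245 normalised reads, against 4711, 4391 and 4419 in WT (log2 fold change 0.19; limma adjusted p = 0.396).

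Tram1, a membrane protein beside the channel, had 11077, 10948, 11469.8 and 10593 normalised reads in cKO MED1 and 12504.5, 11899 and 13881 in WT. The groups did not overlap, and its log2 fold change of -0.21 did not pass in limma (adjusted p = 0.106). Sec62, which serves chains that arrive after synthesis, also did not overlap, with 2732, 2764, 2618 and 2251 in cKO MED1 and 3047, 2796.5 and 3035 in WT (log2 fold change -0.20; limma adjusted p = 0.132). Sec63, the partner that recruits the chaperone BiP, was level, at 2289 ± 97.4 in cKO MED1 and 2263 ± 146 in WT (SD, n = 4 and 3; log2 fold change 0.02, limma adjusted p = 0.889).

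The translocon-associated protein complex, which sits on Sec61 and aids some signal sequences, had no call by limma among its 4 genes, 1 unadjusted p under 0.05 and a median log2 fold change of -0.16; edgeR called none of the 4 and DESeq2 called Ssr1 lower. Ssr1 had 9989, 10042, 10125 and 8574 normalised reads in cKO MED1, against 12302, 10411 and 12209 in WT, without overlap (log2 fold change -0.26; limma adjusted p = 0.0725). Ssr2 gave -0.22 (limma adjusted p = 0.175) and Ssr3 -0.11 (limma adjusted p = 0.411), and both overlapped. Ssr4 gave 0.12 (limma adjusted p = 0.533), with 4298, 5697, 6946 and 5496 in cKO MED1 and 5037, 5386 and 4896 in WT. In Ssr4, as in Sec61g and Sec61b, cKO MED1 1 was the lowest of the 7 libraries and cKO MED1 3 the highest.

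Signal peptidase holds 1 of 2 alternative catalytic subunits, Sec11a or Sec11c. Sec11a (chr7:80904889-80947780, minus strand) had 1492, 1829, 1867.5 and 1534 normalised reads in cKO MED1, against 2127.5, 2011 and 2022 in WT. No cKO MED1 library overlapped with WT, and the log2 fold change of Sec11a was -0.30 ± 0.10 SE at an adjusted p of 0.0468 in limma, the closest to the threshold of the 7 calls. It was called in 10 of 22 alternatives and in 1 of the 7 fits that left out 1 library. Sec11c had 11159, 14537, 17984 and 14615 in cKO MED1, against 11771, 12082 and 12201 in WT. Here cKO MED1 1 was below all WT libraries and the other 3 cKO MED1 libraries were above them (log2 fold change 0.26; limma adjusted p = 0.174). Within each library the log2 ratio of Sec11a to Sec11c was -2.90, -2.99, -3.27 and -3.25 in cKO MED1, against -2.47, -2.59 and -2.59 in WT. The ratio was lower in all 4 cKO MED1 libraries, by 0.55 on average (cKO MED1 minus WT -0.55; two-sided exact permutation p = 0.0286, the smallest that the 35 assignments of the 7 libraries allow). Adjusted over the 6 paralog pairs compared, that exact permutation p was 0.171 and did not pass; with 35 assignments, a single pair at the smallest p among 6 cannot pass this adjustment.

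The accessory subunits of signal peptidase did not pass. Spcs2 had 5176, 5347, 6311 and 4802 normalised reads in cKO MED1 and 6889.8, 5999 and 6402 in WT (log2 fold change -0.25; limma adjusted p = 0.0871). Spcs1 (log2 fold change 0.09; limma adjusted p = 0.668) and Spcs3 (0.02; limma adjusted p = 0.884) overlapped widely. Summed over its 5 genes, signal peptidase had 28242, 34112, 40391 and 32646 normalised reads in cKO MED1 and 32585, 30679 and 33590.3 in WT, with cKO MED1 1 lowest and cKO MED1 3 highest.

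**Figure D2:**
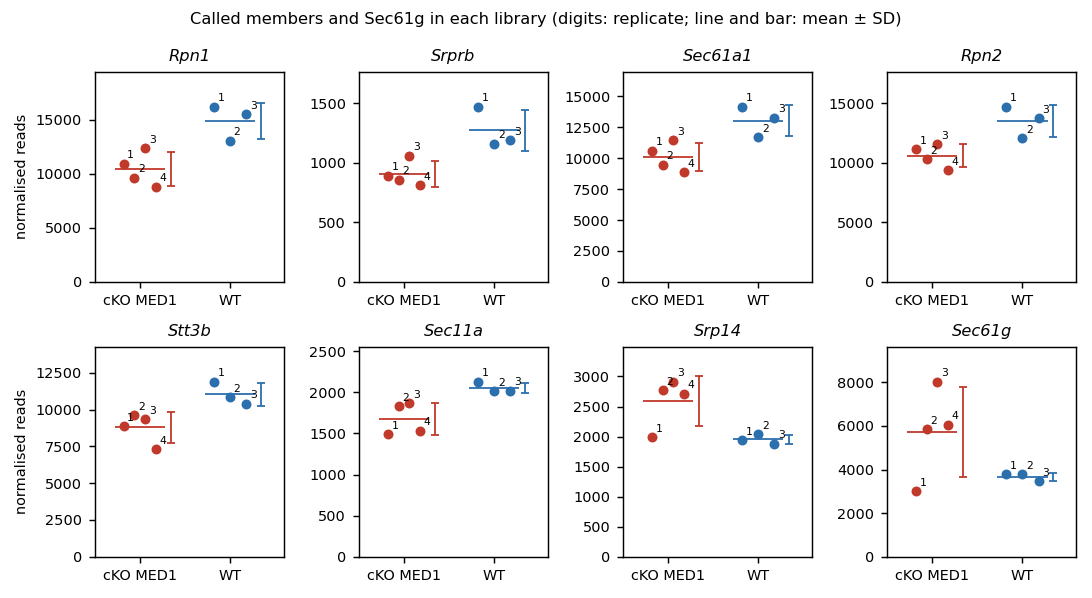
Normalised reads (vertical axes, from 0) of the 7 called genes and Sec61g in each library, cKO MED1 left and WT right; digits give the replicate, and lines and bars give the mean ± SD. Rpn1, Srprb, Sec61a1, Rpn2, Stt3b and Sec11a have every cKO MED1 library below every WT library, while cKO MED1 1 of Srp14 and Sec61g lies within or below the WT values.

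The COPII coat had no call by limma or edgeR among its 10 genes, a median log2 fold change of -0.02 and 1 gene with an unadjusted p under 0.05, which DESeq2 called lower. That gene was Sar1a, the GTPase that starts the coat, with 3729, 3784, 4133 and 3525 normalised reads in cKO MED1 and 4635, 4145 and 4497.5 in WT (log2 fold change -0.22; limma adjusted p = 0.0740). The groups of Sar1a did not overlap, with cKO MED1 3 close below WT 2. Its paralog Sar1b averaged 1949 ± 466 in cKO MED1 and 1930.3 ± 218 in WT (SD, n = 4 and 3; log2 fold change -0.01). The inner coat of Sec23 and Sec24 proteins selects cargo. Its members Sec23a (log2 fold change -0.02), Sec24a (-0.02), Sec24b (0.00), Sec24c (0.01) and Sec24d (0.05) had limma adjusted p-values between 0.814 and 0.970, and Sec23b gave -0.18 (limma adjusted p = 0.231). The most abundant of them in reads per kb, Sec24c, had 6384, 5826, 5878 and 5726.5 normalised reads in cKO MED1 and 6243, 5634 and 5864 in WT. Of the outer coat, Sec13 gave -0.20 (limma adjusted p = 0.206) and Sec31a -0.12 (limma adjusted p = 0.364).

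The 5 paralog pairs besides Sec11a and Sec11c showed no shift past the spread of the libraries. Stt3a to Stt3b gave 0.11 (cKO MED1 minus WT, log2 ratio; exact permutation p = 0.343), Sar1a to Sar1b -0.21 (exact permutation p = 0.343) and Sec23a to Sec23b 0.15 (exact permutation p = 0.286). Sec24a to Sec24b gave -0.02 and Sec24c to Sec24d -0.04, each with an exact permutation p of 0.8.

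The COPI coat had no call by limma or edgeR among its 5 genes, 2 unadjusted p-values under 0.05 and a median log2 fold change of -0.18. For 3 genes the groups did not overlap, with cKO MED1 lower. That is a small count to set beside 19.8% of all genes tested and 36.6% of the 6021. DESeq2 called 2 of these 3 genes, Copb2 and Arcn1, lower. Copb2 had 6061, 5453, 5625 and 5122.5 normalised reads in cKO MED1, against 7053, 6062 and 6924 in WT, so that cKO MED1 1 and WT 2 nearly touched (log2 fold change -0.26; limma adjusted p = 0.0565). Arcn1, the delta subunit, had 7805, 7848, 8223 and 7123 in cKO MED1 and 9561, 8421 and 9392 in WT (log2 fold change -0.24; limma adjusted p = 0.0735). Copb1, the beta subunit, had 5188, 5233, 5117 and 4595 in cKO MED1 and 5867, 5312 and 5878 in WT (log2 fold change -0.18; limma adjusted p = 0.143). In each of the 3, WT 2 was the WT library nearest to cKO MED1. Copa, the alpha subunit (log2 fold change -0.10; limma adjusted p = 0.442), and Cope, the epsilon subunit (0.01; limma adjusted p = 0.914), overlapped.

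Lman1 and Mcfd2 encode the receptor that carries coagulation factors and other glycoproteins out of the ER, and neither was called by limma, edgeR or DESeq2 or had an unadjusted p under 0.05 in limma. Lman1 had 5889, 5240.2, 5846 and 5071 normalised reads in cKO MED1 and 6557, 5678 and 6858 in WT, with overlap (log2 fold change -0.21; limma adjusted p = 0.131). Mcfd2 averaged 910 ± 93.3 in cKO MED1 and 901 ± 12.2 in WT (SD, n = 4 and 3; log2 fold change 0.01), and was the 1 gene of the 45 outside the 6021 with the highest mean.

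**Figure D3:**
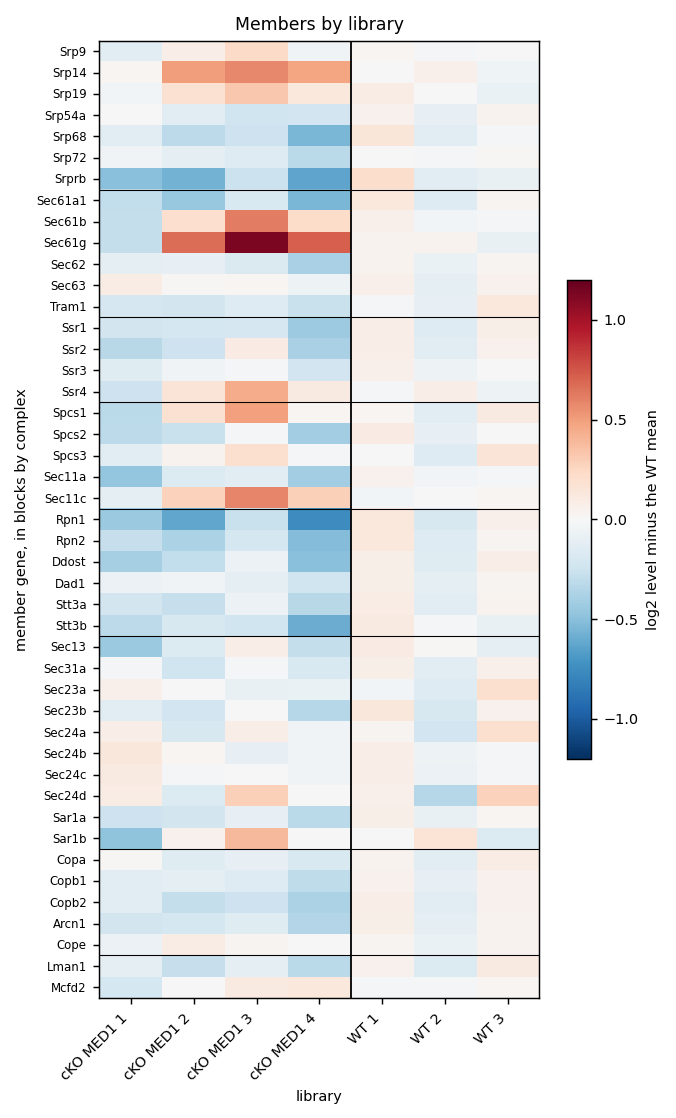
Log2 level of each of the 45 genes (rows, in blocks by complex) minus its WT mean in each of the 7 libraries (columns, the 4 cKO MED1 libraries left of the line and the 3 WT libraries right of it). Blue is below and red above the WT mean; the oligosaccharyl transferase block is blue in the 4 cKO MED1 columns, and Sec61g, Sec61b, Ssr4 and Sec11c are red in cKO MED1 3 and blue in cKO MED1 1.

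Per kilobase of main mRNA, the most abundant of the 45 transcripts was Sec11c in both groups, at 16946 ± 3240 normalised reads per kb in cKO MED1 and 13974 ± 259 in WT (SD, n = 4 and 3). Sec61b followed at 9311 ± 2314 in cKO MED1 and 7991 ± 314 in WT. The lowest was Sec24a, at 239 ± 20.9 in cKO MED1 and 243 ± 35.7 in WT. By this level Sec61g ranked 3 of 45 in cKO MED1 and 6 in WT, Srp14 ranked 11 in cKO MED1 and 19 in WT, and Srprb ranked 44 in cKO MED1 and 41 in WT.

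Sec61g, Sec61b, Ssr4 and Sec11c, the genes described as high in cKO MED1 3 and low in cKO MED1 1, have coding sequences of 204, 288, 516 and 576 bases. Spcs1, Srp9 and Sar1b (306, 258 and 594 bases) also had cKO MED1 1 lowest and cKO MED1 3 highest of the 7 libraries. For the 8 genes with a coding sequence under 500 bases (Srp9, Srp14, Srp19, Sec61b, Sec61g, Spcs1, Dad1 and Mcfd2), the median log2 level minus the WT mean was -0.17, 0.18, 0.41 and 0.13 in the cKO MED1 libraries, against 0.03, -0.02 and -0.02 in the WT libraries. For the 10 genes with 1000 to under 2000 bases it was -0.21, -0.29, -0.18 and -0.45 in cKO MED1, against 0.07, -0.14 and 0.04 in WT. The median log2 fold change was 0.12 over the 8 short genes, -0.20 over the 13 genes of 500 to under 1000 bases, -0.27 over the 10 genes of 1000 to under 2000 bases and -0.11 over the 14 longer ones. The positive sign for the short genes depended on scaling: their median was -0.12 when libraries were scaled by total reads, -0.01 with the authors' scaling and -0.03 with TMM factors from all features, while all genes tested then had medians of -0.21, -0.10 and -0.12. Relative to the median of all genes, the short genes were between 0.08 and 0.09 higher under all 6 scalings. A scaling moves all genes of a library together, so this difference could hardly change and is no separate check. Among the 6021 genes of highest mean, the median log2 fold change was -0.11 in the class under 500 bases, and -0.18, -0.18 and -0.12 in the longer classes, in order of length. There, the 600 with a coding sequence under 500 bases had -0.29, -0.00, 0.02 and -0.20 as per-library medians in cKO MED1, so cKO MED1 1 was the lowest cKO MED1 library and cKO MED1 3 the highest. The part of RNA quality or library preparation in this was not tested.

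**Figure D4:**
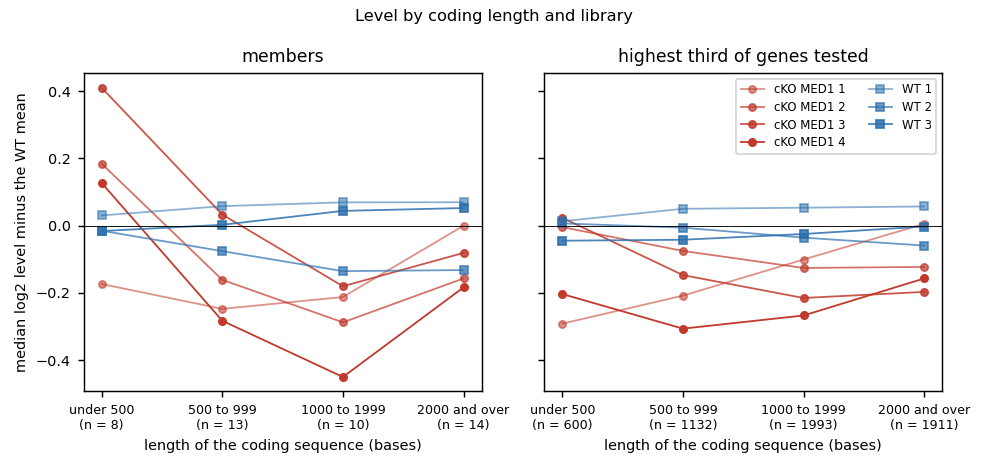
Median log2 level minus the WT mean (vertical axis) by coding length (horizontal axis) in each library, for the 45 genes (left) and for those of the 6021 tested genes of highest mean with a coding length (right); red circles are cKO MED1 and blue squares WT libraries. In the shortest class of the 45 genes the cKO MED1 libraries spread between -0.17 and 0.41, and the WT libraries lie between -0.02 and 0.03.

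Promoters from RefSeq (GRCm38.p6; 250 bases before to 50 after the start) were at hand for 36 of the 45 genes and not for Arcn1, Lman1, Sec11c, Sec61a1, Spcs3, Srp19, Srp68, Ssr2 and Tram1. The whole ER stress response element occurred in none of the 36, and in 0.137% of all 27025 genes with a promoter. The 8-letter motif TGACGTGG, searched on both strands, occurred in 4 of the 36 (11.1%), against 0.714% of all genes with a promoter and 1.01% of the tested ones. TGACGTGG is known as a sequence to which the unfolded protein response factors ATF6 and XBP1 can bind, and it contains CCACG on the opposite strand. All 4 are coat genes, and limma called none of them (DESeq2 called Copb2 lower): Copb1 and Copb2 of COPI, and Sec23a and Sec24d of COPII. CCACG alone occurred in 23 of the 36 (63.9%), against 35.5% of all genes with a promoter and 49.9% of the tested ones, and CCAAT in 16 (44.4%), against 41.1% and 42.6%. A match describes the letters in this window, not binding.

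These 4 promoters are shown because they hold the motif; each reads 5′ to 3′ along the gene, and capitals mark TGACGTGG or its reverse complement. The windows are chr7:114254631-114254930 on the minus strand for Copb1, chr9:98563481-98563780 on the plus strand for Copb2, chr12:59011968-59012267 on the minus strand for Sec23a and chr3:123267246-123267545 on the plus strand for Sec24d. The first base of the match lay at -28 for Copb1, -7 for Copb2, +7 for Sec23a and -26 for Sec24d, counted from the start.
Copb1: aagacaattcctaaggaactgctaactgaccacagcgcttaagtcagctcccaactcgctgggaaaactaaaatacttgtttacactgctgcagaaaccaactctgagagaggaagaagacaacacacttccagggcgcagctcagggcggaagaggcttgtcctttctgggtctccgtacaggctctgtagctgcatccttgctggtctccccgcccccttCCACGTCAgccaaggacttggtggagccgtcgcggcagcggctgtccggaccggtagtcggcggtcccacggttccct
Copb2: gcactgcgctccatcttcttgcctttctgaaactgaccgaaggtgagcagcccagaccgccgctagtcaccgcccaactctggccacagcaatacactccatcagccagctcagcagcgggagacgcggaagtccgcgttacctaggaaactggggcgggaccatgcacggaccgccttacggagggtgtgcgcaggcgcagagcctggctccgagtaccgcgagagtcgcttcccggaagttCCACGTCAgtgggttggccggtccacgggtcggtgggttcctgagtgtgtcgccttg
Sec23a: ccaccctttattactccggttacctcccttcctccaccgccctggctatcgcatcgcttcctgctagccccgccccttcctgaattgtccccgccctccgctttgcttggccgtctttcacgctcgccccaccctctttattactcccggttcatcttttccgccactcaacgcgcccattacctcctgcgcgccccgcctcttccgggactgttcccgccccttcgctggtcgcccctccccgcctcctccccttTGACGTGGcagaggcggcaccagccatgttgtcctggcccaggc
Sec24d: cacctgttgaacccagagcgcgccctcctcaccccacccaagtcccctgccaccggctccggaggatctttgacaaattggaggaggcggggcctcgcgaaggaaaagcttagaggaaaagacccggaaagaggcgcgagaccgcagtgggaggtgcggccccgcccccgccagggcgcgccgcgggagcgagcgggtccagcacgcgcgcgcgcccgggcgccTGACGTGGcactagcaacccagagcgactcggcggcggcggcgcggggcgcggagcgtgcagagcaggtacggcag

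Of 63 further tested genes of the same pathway, listed by role, 9 fell and 3 rose in cKO MED1 (limma), with a median log2 fold change of -0.12. The 14.3% that fell were near the 14.6% of all genes tested and below the 27.8% of the 6021 genes of highest mean, and the 4.76% that rose stood beside 13.4% and 5.6%. The fit with sex as a covariate rests on cKO MED1 3 and cannot decide these calls. Without WT 1 limma called 2 of them lower and 1 higher, beside 1029 lower and 527 higher of all 19597 genes then tested. Without cKO MED1 4 it called 2 lower and 2 higher, beside 1523 lower and 1289 higher of all 17117. Cargo receptors gave 4 lower of 18. Tmed5, a p24 family member that sorts cargo between ER and Golgi, had 4931, 5188, 5368 and 4661 normalised reads in cKO MED1, against 7560.4, 6723 and 6948 in WT. All cKO MED1 libraries were well below WT (log2 fold change -0.49 ± 0.09 SE, adjusted p = 0.00423 by limma). Tmed5 was called in 21 of 22 alternatives, all but sex as a covariate, a fit that rests on cKO MED1 3. Its relative Tmed3 (log2 fold change -0.33, limma adjusted p = 0.0226) and the lectin gene Lman2 (-0.33, limma adjusted p = 0.0314) were lower too. Tmed3 was called in 17 and Lman2 in 14 of 22 alternatives.

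Among the targeting genes 3 of 6 fell, a small count to set beside 14.6% of all genes tested and 27.8% of the 6021: Srpr, Tram2 (log2 fold change -0.45; limma adjusted p = 0.0344), a relative of Tram1, and Bcap31 (-0.36; limma adjusted p = 0.0219), an ER membrane protein that handles export of membrane proteins. Tram2 was called in 16 and Bcap31 in 17 of 22 alternatives. Of 6 further oligosaccharyl transferase genes 1 fell. That was Tusc3, an oxidoreductase subunit of the Stt3b form of the complex, with 402, 531, 494 and 437 normalised reads in cKO MED1 and 725, 693 and 653 in WT (log2 fold change -0.57 ± 0.11 SE; adjusted p = 0.00627 by limma). No cKO MED1 library of Tusc3 reached the WT range. Its call was lost in 1 of 22 alternatives, that with sex as a covariate, which rests on cKO MED1 3. The median log2 fold change of the 6 further subunits was -0.12, and 4 of them were below 0. Ost4 (0.17) and Tmem258 (0.10) were above 0, and limma called neither.

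The 3 genes that rose were Copz2, Sec31b and Bet1. Copz2, an alternative zeta subunit of COPI, had 187, 182, 147.5 and 176 normalised reads in cKO MED1, against 65.4, 66.1 and 105 in WT (log2 fold change 1.15 ± 0.19 SE; adjusted p = 0.00275 by limma). Sec31b, an alternative outer coat subunit of COPII, had 100.3, 84.8, 86.9 and 115 in cKO MED1 and 47.5, 51.4 and 65.5 in WT (log2 fold change 0.81 ± 0.19 SE; adjusted p = 0.0136 by limma). Both did not overlap between groups, and both were low: per kb of main mRNA, Copz2 had 186 normalised reads in cKO MED1 and 84.9 in WT, and Sec31b 24.6 in cKO MED1 and 13.9 in WT. The 1822 olfactory and vomeronasal receptor genes, known for their use in sensory neurons, had 0.239 to 1.04 normalised reads per kb in cKO MED1 and 0.117 to 0.244 in WT, and Copz2 and Sec31b were also called with that background subtracted. Bet1 and Ykt6 are SNARE genes of ER to Golgi traffic, and went opposite ways. Bet1 was higher (log2 fold change 0.35, limma adjusted p = 0.0320) and Ykt6 lower (-0.29, limma adjusted p = 0.0256) in cKO MED1. They were the 2 calls among 14 tether and SNARE genes. Of 22 alternatives, Bet1 was called in 13 and Ykt6 in 14. Bet1 was not called by total reads, with the authors' scaling or with TMM factors from all features.

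**Figure D5:**
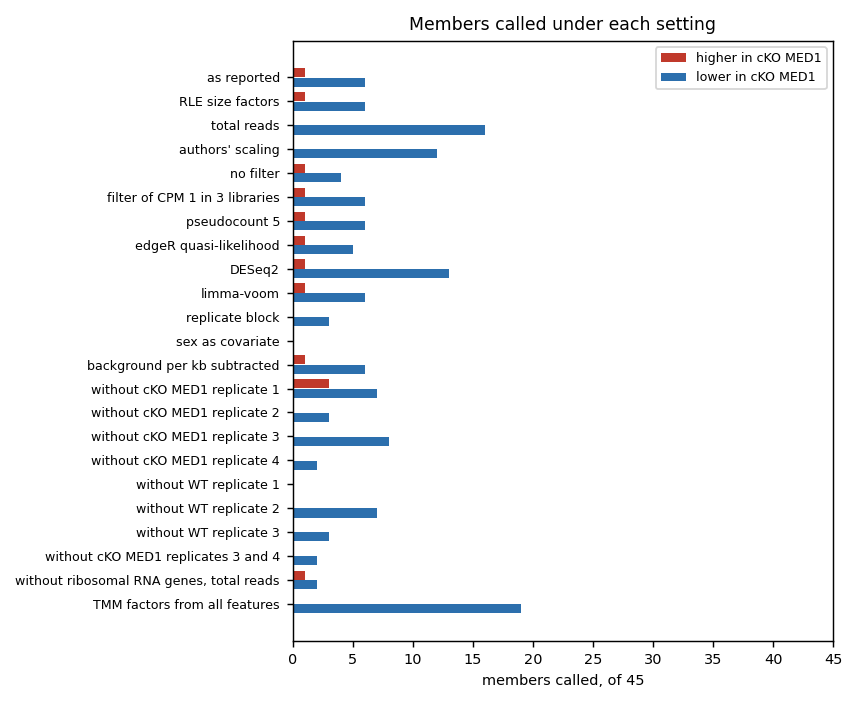
Number of the 45 genes called higher (red) and lower (blue) in cKO MED1 (horizontal axis) under each setting (rows). The count of genes called lower lies between 0, without WT 1, and 19, with TMM factors taken from all features. The row with sex as a covariate rests on cKO MED1 3 alone.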

How the data were processed

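RNA-seq of 7 libraries of activated splenic B cells was used, 4 cKO MED1 and 3 WT, grouped by their labels. Per the labels' protocols, a strand-keeping total RNA kit was used on RNA depleted of ribosomal RNA. STAR 2.4.0a, featureCounts (Subread 1.5.0-p3) and DESeq2 are named in the submitters' processing notes with builds mm10 and GRCm38; no source used here says whether counting used strand. The deposited table holds a signal per gene: read counts that the authors divided by 1 size factor a library. Whole reads were recovered for 100% of values (tolerance 1e-06), and the count test edgeR on them called 5340 genes. Here reads were scaled with TMM factors, filtered with filterByExpr (18062 genes kept) and tested with limma 3.58.1 (trend) on log2(normalised reads + 1), with Benjamini-Hochberg adjustment over all genes tested and a threshold of 0.05; fold changes are on that scale. The design named this test for such values. Ratios of paralogs were tested by exact permutation. Recovered reads were 33924364, 49603193, 41699903 and 31937372 in cKO MED1 1 to 4, and 61149274, 55453522 and 54736580 in WT 1 to 3. Alternatives used R 4.3.3, edgeR 4.0.16, DESeq2 1.42.0, other scalings, filters and pseudocounts, a sex covariate, a replicate block and left-out libraries. All 45 genes are named; further pathway genes are named where called, at most 3 a role with the smallest adjusted p. The genes and lists were chosen with earlier results of these data known. Annotated lengths are of GENCODE M21 (GRCm38). The test across genes was checked on simulated data.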

Additional observations from a re-analysis of the deposited data

Results flagged for a closer look

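Ssr1, a subunit of the translocon-associated protein complex, stood low in 1 library of its group. In cKO MED1 4 it had 8574 normalised reads, and the nearest of the other 3 cKO MED1 libraries had 9989, so that the gap made up 0.912 of the range of the group, above the 95% limit of Dixon's test for 4 samples. It was the 1 gene so marked of 45 tested, where chance marks about 1 in 20 groups. The same library was the lowest of all 7 for 23 of the 45 genes.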

How the results depend on the processing

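Among the 45 genes, 6 were called lower and 1 higher, 9 and 3 of the further pathway genes, and the median log2 fold change was -0.15. By total reads the counts were 16 lower and 0 higher of the 45, 19 further genes were lower, and the median was -0.39; with the authors' scaling these were 12, 0, 14 and -0.28. TMM factors from all features, an alternative chosen after seeing the data, gave 19 lower, 0 higher, 23 further genes lower and a median of -0.31; total reads without ribosomal RNA genes, likewise added, gave 2 lower. DESeq2 called 13 lower. Of all 18062 genes tested, 2646 were lower as reported, 4379 by total reads and 3585 with the authors' scaling. With TMM factors from all features 4363 were lower, and with DESeq2 3027. Without ribosomal RNA genes 2027 of 18162 were lower. The median of all genes tested was 0.04 as reported, -0.21 by total reads, -0.10 with the authors' scaling and -0.12 with TMM factors from all features. With sex as a covariate the fit rests on cKO MED1 3 and cannot decide the calls, and the median was -0.069, beside 0.006 over all genes tested. Without cKO MED1 3 and 4, 2 were lower and 0 higher, and 2 and 1 of the further genes, beside 1276 lower and 869 higher of 17396 genes. Leaving out 1 library gave 0 to 8 lower and 0 to 3 higher of the 45, 2 to 13 lower and 1 to 4 higher of the further genes, and medians of -0.24 to -0.079. Over all genes tested, those fits called 1029 to 3114 lower and 527 to 3012 higher. No called gene changed sign. The causes were not tested.

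The labels number the replicates and do not state a pairing. Same-numbered libraries had correlations of 0.51, -0.23 and 0.16. Of the WT libraries, WT 1 gave the highest value with cKO MED1 1, WT 1 with cKO MED1 2 (0.40) and WT 2 with cKO MED1 3 (0.17). So few values cannot decide whether same-numbered libraries were handled together. With the replicate block, 3 of the 45 genes were lower and 0 higher, 3 further genes were lower, and the median was -0.10. Of all 18062 genes tested, 1822 were then lower and 1919 higher. The library cKO MED1 4 has no same-numbered WT library, so in this fit it adds nothing to the difference.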

Other observations

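Rpn1 and Sec61a1, 2 of the 6 genes that fell, lie 398274 bases apart on chromosome 6. The 3 tested genes between them were looked at after these values were seen. Ruvbl1, an ATPase of chromatin remodelling complexes, was lower in cKO MED1 (log2 fold change -0.69 ± 0.12 SE; limma adjusted p = 0.00324), as was Eefsec, the elongation factor for selenocysteine (-0.41 ± 0.11 SE; limma adjusted p = 0.0238). Gata2 was not called (1.76 ± 0.73 SE; limma adjusted p = 0.0886).

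The COPII genes Sec24a and Sar1b are 52 bases apart on chromosome 11, on opposite strands and pointing away from each other. Neither was called, with log2 fold changes of -0.02 for Sec24a and -0.01 for Sar1b.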
